A study of Mus musculus with 4 samples.

Results

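The genes described here are 8 genes of type 2 immunity: the receptor gene Il1rl1, the transcription factor genes Gata3 and Rora, the cytokine genes Il13, Il5 and Il4, the growth factor gene Areg and the enzyme gene Arg1. They are 8 of the 55253 genes whose symbols the 2 gene matrices share, and were taken as a list of names. Their raw UMI counts (unique molecular identifiers, 1 per captured transcript) were followed through cells sorted into gates, and through the hash tag names of each library. Gates were set by counts of marker genes, among them Il1rl1 itself.

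The study profiled CD45+ immune cells of the mouse mammary gland by droplet RNA sequencing in 2 pooled libraries, called the first (DR_MG_2021) and the second (DR_MG_2022) library, with antibody hash tags marking the animals' cells. The first library held Nulliparous, Gestation and Lactation samples and a sample on tag HT2. The second library held Gestation, Lactation, Involution, Regression, Balb/c and GF samples and again a sample on HT2. Nulliparous animals have not carried young, involution is the regression of the gland after milk removal stops, Balb/c is an inbred strain, and the study's design includes germ-free mice, to which the name GF points. The deposited tag sheets name HT2 germ-free, while the library titles dispute that name, so it is called the HT2 sample and enters no stage comparison. No source used here gives the strain of the other samples, the reproductive stage behind the names Balb/c and GF, or how many animals a tag holds. Each name is therefore 1 sample per library, and p-values measure only the spread between these tagged samples, which may be technical. That spread was estimated largely over all genes together, and in the Foxp3+ T and Cpa3+ comparisons described below wholly so.

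Il1rl1 encodes ST2, the receptor for the alarmin IL-33, which damaged barrier cells release. Group 2 innate lymphoid cells, known as ILC2, lack antigen receptors and respond to IL-33 with IL-5 and IL-13. GATA3 and ROR-alpha are transcription factors required for ILC2, and GATA3 also directs helper T cells toward the type 2 fate. IL-4 drives that fate and IgE switching, IL-5 sustains eosinophils, and IL-13 acts on epithelium and macrophages. Amphiregulin, the product of Areg, is an EGF receptor ligand made by ILC2 and tissue regulatory T cells, and by mammary epithelium, where it serves ductal growth. Arginase 1, from Arg1, breaks down arginine in alternatively activated macrophages and in ILC2. Mast cells carry ST2 on their surface.

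In RefSeq's GRCm38.p6 annotation all 8 genes are protein-coding. Il1rl1 lies at chr1:40404864-40465418, Gata3 at chr2:9857078-9887953, Areg at chr5:91139599-91148432, Rora at chr9:68653404-69388246 and Arg1 at chr10:24915207-24927470. The 3 cytokine genes share 1 locus on chr11 that spans 112.644 kb. Il4 (chr11:53612460-53618665) and Il13 (chr11:53631323-53634702) are neighbours on the minus strand. Il5 (chr11:53720794-53725103, plus strand) lies on the far side of Rad50 (chr11:53649519-53707319). The sequences directly upstream of these 3 genes are shown because the genes sit together. Each window holds the 250 bases before the gene's start, written 5' to 3' on the gene's own strand: chr11:53618666-53618915 for Il4, chr11:53634703-53634952 for Il13 and chr11:53720544-53720793 for Il5. Capitals mark matches on either strand to the GATA words AGATAA or TGATAA, or to the same words with a final G.
Il4 upstream: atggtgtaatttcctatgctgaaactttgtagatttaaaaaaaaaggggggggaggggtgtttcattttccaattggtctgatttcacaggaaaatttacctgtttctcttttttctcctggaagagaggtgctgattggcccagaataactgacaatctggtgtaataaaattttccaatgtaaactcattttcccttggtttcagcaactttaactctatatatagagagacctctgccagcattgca
Il13 upstream: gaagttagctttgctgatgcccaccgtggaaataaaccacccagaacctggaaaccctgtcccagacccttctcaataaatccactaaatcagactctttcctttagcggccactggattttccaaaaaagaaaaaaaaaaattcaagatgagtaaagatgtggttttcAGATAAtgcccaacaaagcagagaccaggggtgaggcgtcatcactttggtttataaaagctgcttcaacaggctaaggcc
Il5 upstream: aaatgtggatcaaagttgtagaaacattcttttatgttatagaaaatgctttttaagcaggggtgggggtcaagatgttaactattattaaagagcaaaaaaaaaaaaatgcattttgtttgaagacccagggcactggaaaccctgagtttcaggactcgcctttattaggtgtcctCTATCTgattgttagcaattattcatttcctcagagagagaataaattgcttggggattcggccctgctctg
The Il13 window held 1 match, whose first base lies at position -81 from the start, and the Il5 window held 1, at -72, on the opposite strand. The Il4 window shown held none, and it held 1 match to the spaced STAT6 palindrome, TTC and GAA with 4 bases between them. RefSeq's other Il4 window, chr11:53617339-53617588, held 1 GATA match, at -80, and no STAT6 match. Of 32851 RefSeq promoter windows of the same length, 26.5% held a GATA word and 5.85% held the STAT6 palindrome, and these letter matches are a description only.

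The libraries held 56300251 (the first) and 90642638 (the second) UMIs, and 15283 and 14603 cells with 1 tag were analysed. The median cell of a tagged sample held 1194 to 2041 UMIs in the first library and 2406 to 3170 in the second library. The libraries shared 72 cell barcodes. All gates are exclusive. Foxp3-negative T and Foxp3+ T cells have a UMI of Cd3e and lack or have one of Foxp3, the regulatory T cell factor. Il1rl1+ Cd3e- cells have a UMI of Il1rl1 and none of Cd3e or Foxp3. C1qa+ cells have at least 2 UMIs of the macrophage gene C1qa, and Cpa3+ cells at least 2 of the mast cell protease gene Cpa3. The numbers of cells were 3289 and 4633 in the Foxp3-negative T gate, 35 and 123 in the Foxp3+ T gate, 232 and 457 in the Il1rl1+ Cd3e- gate, 1144 and 1290 in the C1qa+ gate, and 24 and 78 in the Cpa3+ gate (the first and the second library). Il1rl1+ Cd3e- cells made up 0.817% to 3.61% of a sample's cells in the first library and 1.26% to 6.58% in the second library.

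Marker genes were checked in each gate. The 5 mast cell markers (Cpa3, Cma1, Mcpt4, Tpsb2 and Kit) summed to 992 and 1290 UMIs per 10000 in the Cpa3+ gate. In the 2 T gates and the Il1rl1+ Cd3e- gate they summed to at most 0.366. Cpa3 itself sets these gates, so part of this difference was fixed in advance. Basophil markers were also present in the Cpa3+ gate: Mcpt8, Prss34, Ms4a2 and Fcer1a summed to at least 13.8 per 10000 there in each library, and to at most 0.00764 in those other gates. The last 2, chains of the IgE receptor that mast cells and basophils share, were in 54.2% and 65.4% (Ms4a2) and 41.7% and 62.8% (Fcer1a) of Cpa3+ cells. Prss34 was in 8.33% and 19.2%, and Mcpt8 in 4.17% and in none. The part of basophils in the Cpa3+ values was not tested. In the Foxp3+ T gate Ctla4 was in 57.1% and 67.5% of cells, against 1.85% and 5.74% of the Foxp3-negative T gate. The Il1rl1+ Cd3e- gate is mixed. Il7r was in 36.6% and 40.9% of its cells and Il2ra in 17.7% and 22.3%, Ptgdr2 was at 0 in both libraries, and the macrophage and dendritic genes Mrc1 (29.7% and 47.7%) and Cd209a (15.9% and 23.2%) were also present. Milk transcripts were in every gate: Csn2 was in 41.4% of Foxp3-negative T cells in the first library and 76.0% in the second library. Levels below are UMIs of a gene per 10000 UMIs of the gate in a sample, given as mean ± SD over tagged samples with at least 10 cells of the gate. They are compared within a gene, not between genes, and intervals on single values are exact 95% Poisson or binomial intervals that cover counting error only.

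The 8 genes fell into 3 patterns across the gates. Il1rl1, Il4 and, on a few UMIs, Il13 were highest in Cpa3+ cells. Gata3 and Areg had overlapping ranges in Il1rl1+ Cd3e- cells (2.55 ± 1.55 and 1.15 ± 0.816, n = 11) and in Foxp3+ T cells (2.22 ± 0.984 and 1.19 ± 1.73, n = 6). Rora had its highest mean in Foxp3+ T cells (2.57 ± 1.25), against 0.957 ± 0.631 in Il1rl1+ Cd3e- cells. Its ranges also overlapped (0.801 to 4.16 and 0.320 to 2.70). Il1rl1+ Cd3e- cells with an ILC2 marker, described below, had Rora medians of 2.16 (the first library) and 2.18 (the second library). Il5 and Arg1 were highest in Il1rl1+ Cd3e- cells. C1qa+ cells had means of 0.247 or less for each of the 8.

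**Figure D1:**
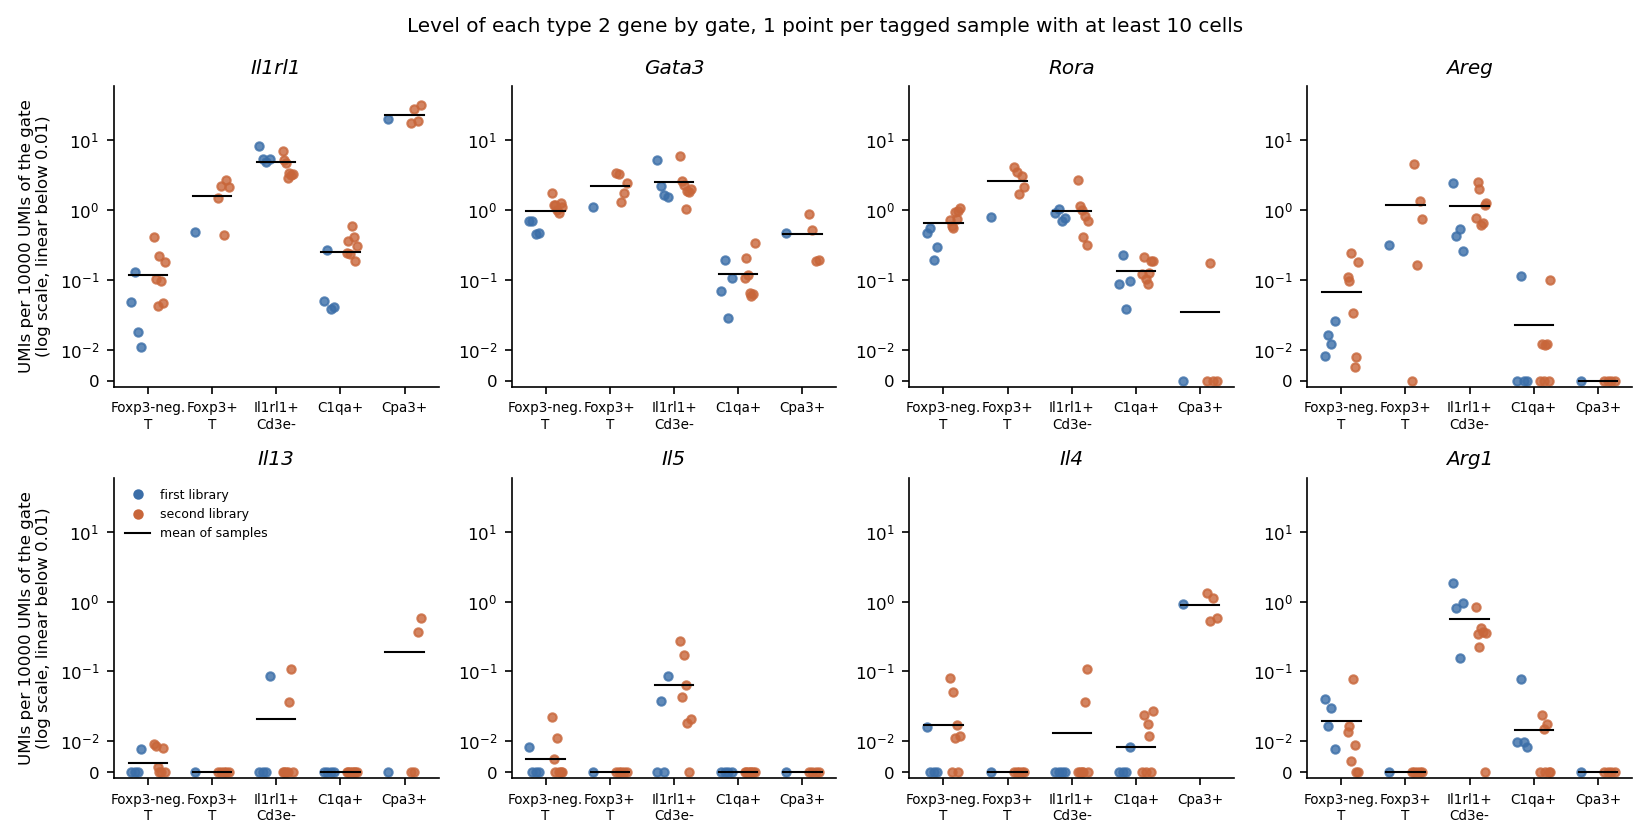
Level of each gene (UMIs per 10000 UMIs of the gate, log axis that is linear below 0.01) in 5 gates, with 1 point per tagged sample of at least 10 cells, coloured by library, and a black line at the mean. Il1rl1 stands at 17.9 to 31.6 in Cpa3+ cells, and Arg1 is at 0 in every Foxp3+ T and Cpa3+ sample.

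Il1rl1 was measured in Cpa3+ cells at 23.3 ± 6.03 (SD, n = 5). The samples were at 20.3 in HT2 of the first library, 17.9 in GF, 27.8 in HT2 of the second library, 18.9 in Involution and 31.6 in Regression, from 10 to 23 cells each. All 5 lay far above every other gate. A UMI of Il1rl1 was in 88.6% of these 88 cells, and in 86.8% of the 68 deep enough to be thinned to 1000 UMIs. In Cd79a+ B cells, which should lack ST2 and serve as a background, it was in 0.491% (the first library, median 970 UMIs) and 0.480% (the second library, median 2049 UMIs) of cells. Their level in the first library, 0.0237 per 10000, lay below the 0.0781 of that library's barcodes with 1 to 100 UMIs, which hold little but free RNA. In Il1rl1+ Cd3e- cells the mean was 4.89 ± 1.68 (n = 11), a level that the gate itself sets.

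Foxp3+ T cells held Il1rl1 at 1.57 ± 0.946 (n = 6), and it was in 24.8% of 129 cells, or 13.3% after thinning. Foxp3-negative T cells of all 11 samples were at 0.119 ± 0.117 and reached at most 0.410, in Balb/c. The ranges of the Foxp3+ samples (0.440 to 2.69) and of the Foxp3-negative samples (0.0110 to 0.410) did not overlap.

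C1qa+ cells differed by library. In the first library their 4 samples stood at 0.268 (HT2), 0.0406 (Nulliparous), 0.0492 (Gestation) and 0.0383 (Lactation). In the second library the 7 samples ran from 0.187 (Lactation) over a median of 0.305 to 0.582 (HT2). Thinned to equal depth, 0.691% of C1qa+ cells in the first library and 5.0% in the second library had a UMI, the latter above the 0.480% of Cd79a+ cells counted without thinning. HT2 was highest in both libraries. In the second library a cluster of 968 cells led by Pf4, Ccl8 and Folr2, genes of resident macrophages, held 227 Il1rl1 UMIs, 10.6% of that library's. A cluster of 289 cells led by Mmp12 held 1. The first library had 126 cells in a cluster led by Pf4 and Ccl8, with 9 UMIs, and 926 in a cluster led by C1qa, Apoe and Mmp12, with 3. The part of this cell mix in the gate's values was not tested. The 3 names in both libraries were each higher in the second: Gestation went from 0.0492 to 0.236, Lactation from 0.0383 to 0.187 and HT2 from 0.268 to 0.582. Library and year cannot be told apart.

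Il1rl1, Areg, Rora and Gata3 were compared between Foxp3+ and Foxp3-negative T cells of the same samples. In all, 6 samples had at least 10 cells in both gates. All 4 genes were higher in Foxp3+ cells, Il1rl1 most of all. For scale, 7.33% of the 10244 genes tested differed, 2.07% higher and 5.26% lower, with a median difference over all genes of -0.17 on the log2 scale. With DESeq2's size factors in place of TMM the split moved from 212 higher and 539 lower to 314 and 344, and the median to -0.02.

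Il1rl1 in Foxp3+ T cells stood at 0.481 in Nulliparous, 1.47 in Balb/c, 2.22 in GF, 0.440 in Gestation of the second library, 2.69 in Involution and 2.14 in Regression. Of these, Nulliparous (on 3 UMIs) and Gestation were the low samples and the other 4 were all higher. Gestation of the first library, whose 7 cells were too few to enter, stood at 3.82 on 4 UMIs, so Gestation was not low in both libraries. The difference from Foxp3-negative T cells was 3.45 (log2, SE 0.33, adjusted p = 9.56e-23, edgeR's quasi-likelihood test with Benjamini-Hochberg adjustment), higher in 6 of 6 samples. As pooled UMIs this was a ratio of 11.9 (95% counting interval 8.99 to 15.7).

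Rora stood at 0.801, 4.16, 3.55, 1.71, 3.07 and 2.14 in the same order of samples. Each was above its own Foxp3-negative T cells, whose 11 samples ran from 0.191 to 1.09. The difference was 1.60 (SE 0.21, adjusted p = 7.31e-12 by the same edgeR test) in 6 of 6 samples. Gata3 stood at 1.12, 3.42, 3.26, 1.32, 1.73 and 2.47, against 0.448 to 1.75 in Foxp3-negative T cells. Each was above its own Foxp3-negative T cells, but the counting intervals of the 2 gates overlapped in 4 of the 6 samples, as in Gestation of the second library, 1.32 (0.847 to 1.97) against 1.17 (1.08 to 1.26). Its difference of 0.71 (SE 0.21, edgeR's adjusted p = 0.0131) was smaller, and without the GF sample (0.60, adjusted p = 0.113) or the Regression sample (0.64, adjusted p = 0.106) it was no longer called. Nor was it with no filter on low counts (edgeR's adjusted p = 0.0711), with 1 UMI setting the C1qa and Cpa3 gates (0.0954), with at least 20 cells per sum (0.201) or with no sample block (0.0845).

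Areg was uneven in Foxp3+ T cells. Its level was 0.321 in Nulliparous, 0 in Balb/c, 4.59 in GF, 0.165 in Gestation, 1.34 in Involution and 0.741 in Regression. GF was the high sample, and 24 of its 31 UMIs came from 1 cell. The difference was 2.84 (SE 0.41, adjusted p = 3.69e-10, edgeR's quasi-likelihood test with Benjamini-Hochberg adjustment), higher in 4 of 6 samples. That p rests on a spread shared by all genes, not on Areg's own spread between samples. Without GF the difference was 1.70 (adjusted p = 0.0160), with at least 20 cells per sum 1.01 (adjusted p = 0.394), and DESeq2 gave an adjusted p of 0.149. Cells with Foxp3 and no Cd3e UMI were outside this gate, and in the second library these 72 cells held Areg at 3.20 and Il1rl1 at 1.35. Il4, Il5, Il13 and Arg1 gave 0 UMIs in the 129 Foxp3+ T cells, which hold 525981 UMIs in all.

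**Figure D2:**
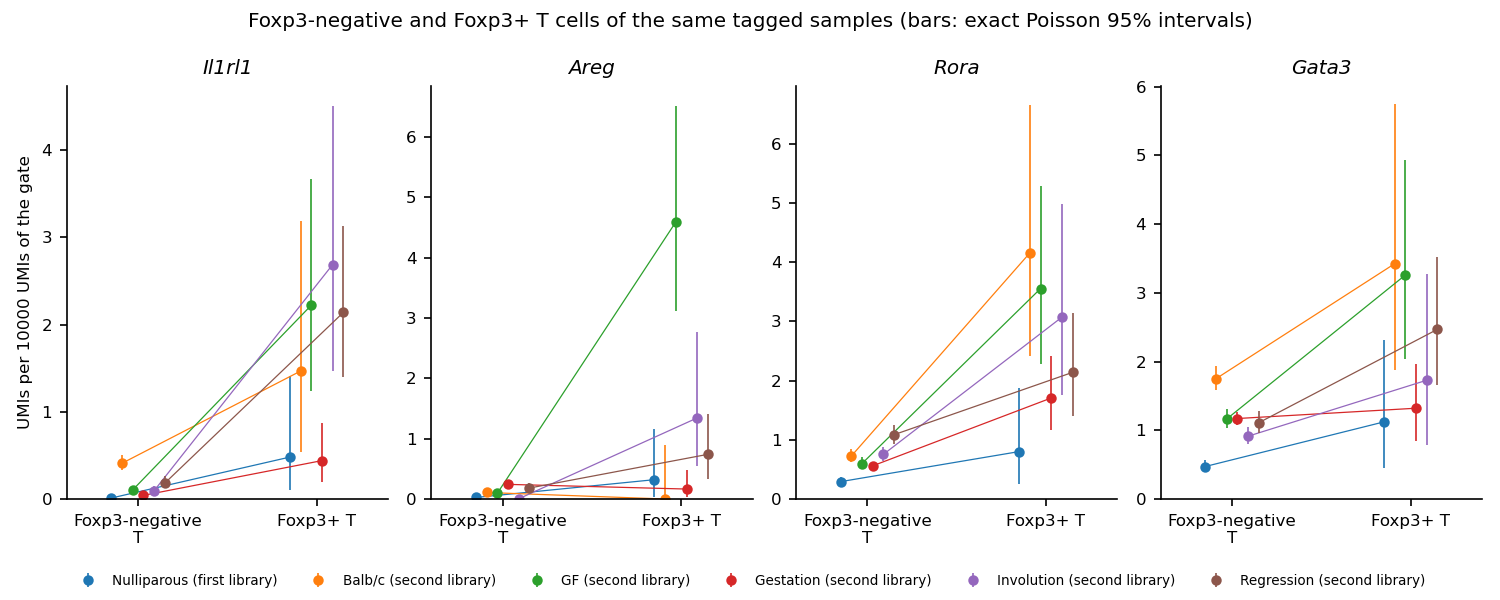
Il1rl1, Areg, Rora and Gata3 (UMIs per 10000 UMIs of the gate) in Foxp3-negative and Foxp3+ T cells of the 6 samples with at least 10 cells in both gates. Lines join the gates of 1 sample and bars are exact 95% Poisson intervals. Il1rl1 and Rora rise along all 6 lines, while the Areg difference is widest in GF, at 4.59.

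Il1rl1+ Cd3e- cells, the gate in which ILC2 would fall, were set against Foxp3-negative T cells and against C1qa+ cells of the same 11 samples. Areg, Arg1 and Gata3 were higher in this gate than in both, and Rora was higher than in C1qa+ cells. These gates differ widely: 45.7% of 9845 genes differed from T cells (19.3% higher, 26.4% lower) and 31.3% of 8592 from C1qa+ cells (12.7% higher, 18.7% lower). A call alone is therefore shared with many other genes. Il1rl1 itself defines the gate, and its difference is not read as a result. Arg1 in both comparisons, and Areg against C1qa+ cells, passed the filter on low counts through sums of the Il1rl1+ Cd3e- gate alone. For them a higher level was a condition of being tested, so no p-value is given.

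Gata3 ran from 1.02 in HT2 of the second library over a median of 1.97 to 5.94 in Balb/c, with a mean of 2.55 ± 1.55 (n = 11). Balb/c and Gestation of the first library (5.15) stood above the other samples, which were at 2.59 or less. Gata3 exceeded Foxp3-negative T cells by 1.24 (log2, SE 0.15, adjusted p = 2.15e-07, edgeR's quasi-likelihood test with Benjamini-Hochberg adjustment) and C1qa+ cells by 4.13 (SE 0.23, adjusted p = 1.58e-12), in 11 of 11 samples each. Of the 91 Gata3 UMIs of C1qa+ cells in the second library, 40 came from 11 cells with epithelial keratin or Epcam transcripts. Ncr1+ cells without Cd3e, the natural killer and ILC1 comparison, held Gata3 at 1.01 ± 0.312 (n = 11), much as Foxp3-negative T cells did (0.971 ± 0.382), and the ranges overlapped.

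Rora ran from 0.320 in Lactation of the second library over a median of 0.826 to 2.70 in Balb/c. Its difference from Foxp3-negative T cells was 0.46 (SE 0.24, adjusted p = 0.115 by edgeR's test), higher in 8 of 11 samples, and was not called. From C1qa+ cells it differed by 2.62 (SE 0.22, adjusted p = 1.02e-09), in 11 of 11 samples. Ncr1+ cells stood at 0.232 ± 0.133. Clusters led by Cd163l1, with Il17re among their leading genes, held 20.9% (the first library) and 17.3% (the second library) of all Rora UMIs, and both genes are known from IL-17-producing gamma-delta T cells.

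Areg ran from 0.258 in Nulliparous over a median of 0.776 to 2.55 in GF, with Gestation of the first library (2.42) and of the second library (1.98) next highest. It exceeded Foxp3-negative T cells by 4.0 (SE 0.31, adjusted p = 2.66e-11, edgeR's quasi-likelihood test with Benjamini-Hochberg adjustment). It exceeded C1qa+ cells by 5.55, for which no test is given. Each difference held in 11 of 11 samples. C1qa+ cells held 19 Areg UMIs in all, and 9 of the 16 in the second library came from cells with epithelial keratin transcripts.

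Arg1 ran from 0 in Lactation of the second library over a median of 0.367 to 1.82 in Gestation of the first library. The gate held 153 Arg1 UMIs, against 31 in 7922 Foxp3-negative T cells and 11 in 2434 C1qa+ cells. The pooled ratios were 35.3 (23.9 to 53.8) and 45.6 (24.8 to 93.2). The levels of C1qa+ cells and T cells overlapped (0.0146 ± 0.0221 and 0.0194 ± 0.0229). Arg1 exceeded T cells by 4.85 and C1qa+ cells by 5.19 (log2), in 10 of 11 samples each, and no test is given.

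Il5 was scarce. The gate held 21 UMIs: 8 in Balb/c, 5 in HT2 of the second library, 3 in Gestation of the second library, 1 each in 5 other samples and 0 in the remaining 3. Foxp3-negative T cells held 8, and C1qa+ cells 0 in 10457588 UMIs. The gate was above T cells in 8 of 11 samples, and the pooled ratio was 18.8 (7.99 to 49.0). No test is given, since Il5 passed the filter on low counts through 2 sums of this gate and none of T cells.

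Within the Il1rl1+ Cd3e- gate, the other members sat almost wholly in cells that carried a UMI of any of 7 ILC2 markers (Il7r, Klrg1, Icos, Il2ra, Ptgdr2, Il17rb and Nmur1). These were 109 of 232 cells (47.0%) in the first library and 205 of 457 (44.9%) in the second library. They held 95.4% and 97.2% of the gate's Gata3 UMIs, 90.2% and 94.6% of Rora, 86.5% and 95.3% of Areg, and 93.5% and 100% of Arg1. Of Il1rl1 they held 53.4% and 59.7%. The split was made after values were seen, and the fits on its parts are alternatives added afterwards.

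With a marker, Gata3 had a median of 6.08 over the samples of the first library (3.96 to 10.3) and of 5.39 over those of the second library (4.49 to 10.6). Without one, it was 0.107 (0 to 0.218) and 0.0269 (0 to 0.605). The ranges did not overlap in either library. Cells without a marker had Lyz2, a myeloid lysozyme gene, at 62.0 and 63.1 and Retnla, a gene of alternative macrophage activation, at 103 and 119 per 10000, while cells with one had Lyz2 at 6.21 and 34.9 and Retnla at 14.2 and 75.8. Clusters led by Retnla and Lyz1 supplied 32.8% and 36.5% of the gate's cells and clusters led by Cd209a 15.9% and 17.5%. The comparisons were repeated on each part of the gate.

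Against Foxp3-negative T cells, the Rora difference was 1.79 (log2) for marker-bearing cells. Icos and Il2ra, both among the markers, had the patterns most like Rora's, and T cells were not picked by a marker. The split thus sets part of this difference, and no test is given for it. For cells without a marker, Gata3 (-3.01) and Rora (-2.91) were lower than in T cells and Areg (0.72, edgeR's adjusted p = 0.408) was not called. Against C1qa+ cells these marker-free cells gave -0.10 for Gata3 (adjusted p = 0.944), -0.52 for Rora (adjusted p = 0.462) and 1.89 for Areg (adjusted p = 0.101), none of them called by edgeR.

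**Figure D3:**
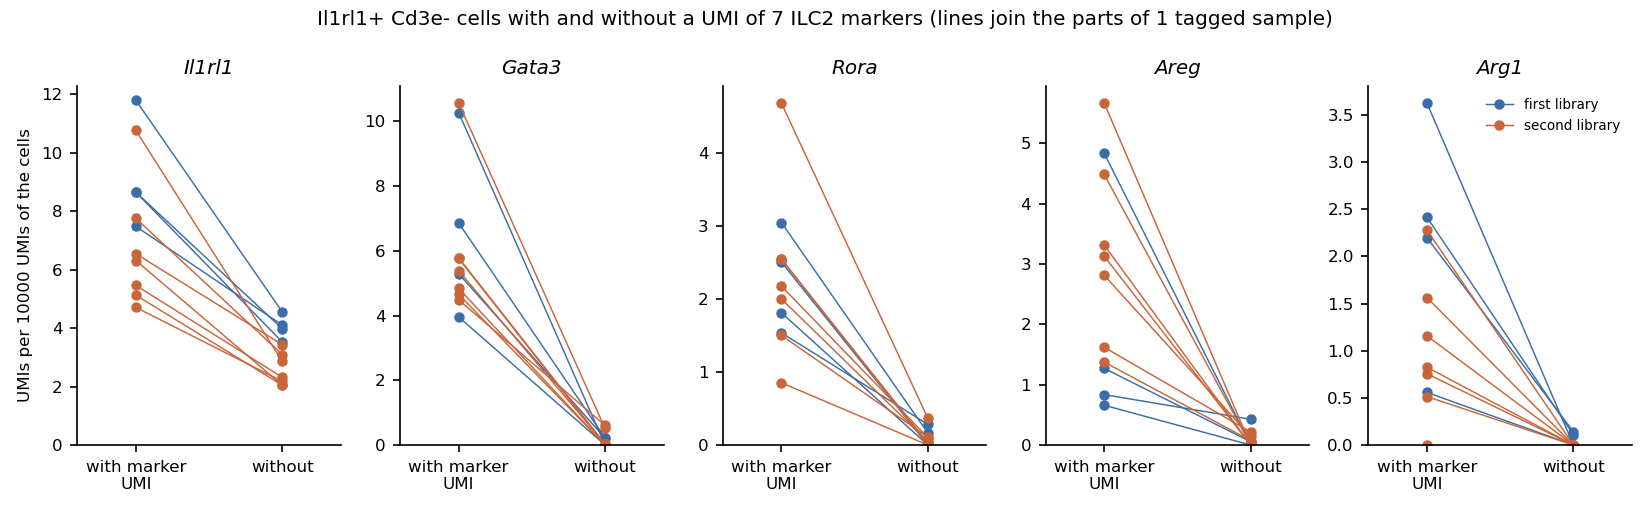
Levels of 5 members (UMIs per 10000 UMIs) in Il1rl1+ Cd3e- cells with and without a UMI of 7 ILC2 markers, each line joining the parts of 1 tagged sample. Gata3, Rora, Areg and Arg1 fall to near 0 without a marker, and Il1rl1, which the gate requires, falls to between 2.04 and 4.55.

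The cells richest in several members also clustered together when all genes were used. In the first library a cluster of 191 cells led by Il1rl1, Arg1, Ptpn13, Il2ra and Areg held 40.6% of Il1rl1, 65.2% of Areg, 63.6% of Il13 and 69.8% of Arg1 UMIs. In the second library a cluster of 135 cells led by Areg, Il1rl1, Arg1, Csf2 and Il2ra held 21.7% of Il1rl1, 33.2% of Areg, 77.8% of Il5 and 59.8% of Arg1 UMIs. Since the members can be among the genes that formed these clusters, the shares are descriptive. Each held more Arg1 UMIs than any other cluster of its library.

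Balb/c stood apart in the Il1rl1+ Cd3e- gate for Gata3 and Rora. Its 75 cells held Gata3 at 5.94 (5.10 to 6.89) and Rora at 2.70 (2.14 to 3.36), while the 6 other samples of the second library ran from 1.02 to 2.59 and from 0.320 to 1.15. In the same gate 69.3% of Balb/c cells carried an ILC2 marker, the highest share of the library, against 25.4% in HT2 of the second library, the lowest. Balb/c was also highest of the second samples for Gata3 in Foxp3-negative T cells, at 1.75 (1.58 to 1.93) against 0.914 to 1.25. It is 1 sample, so no test applies.

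Il1rl1 and Il4 were the members that stood highest in the Cpa3+ gate. Against Foxp3-negative T cells in 5 samples, 32% of 7296 genes differed, 10.5% higher and 21.5% lower. With DESeq2's size factors the counts moved from 764 higher and 1571 lower to 881 and 1288, and the median over all genes from -0.36 to -0.17. Il1rl1 was higher by 6.86 (log2), in 5 of 5 samples. It passed the filter on low counts through the Cpa3+ sums alone, so no test is given.

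Il4 stood at 0.924 in HT2 of the first library, 1.31 in GF, 0.520 in HT2 of the second library, 1.11 in Involution and 0.578 in Regression, from 17 UMIs in 19.3% of cells. All 5 exceeded the highest Foxp3-negative T sample (0.0810, in Balb/c). T cells of the same 5 samples held 7 UMIs, a pooled ratio of 92.7 (36.5 to 264). No test is given for Il4, which passed the filter on low counts through the Cpa3+ sums alone, as Il1rl1 did. Gata3 was lower than in T cells, by a difference of -1.80 (SE 0.48, edgeR's adjusted p = 0.00110) that rests on 8 UMIs, and Rora was counted in 1 UMI, a ratio of 0.0612 (0.00155 to 0.342). Rora passed the filter on low counts through the T cell sums alone, so no test is given for it. With 1 UMI of Cpa3 enough for the gate, Gata3 (-0.52, edgeR's adjusted p = 0.311) was no longer called, and the Rora difference was -0.86. Areg, Arg1 and Il5 were at 0 UMIs in the 208103 UMIs of these cells, and Il13 was counted 5 times in 2 of the 5 samples.

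The 3 cytokine genes of the chromosome 11 locus were counted in few cells: 24 with Il5, 21 with Il13 and 82 with Il4 among all analysed cells of both libraries. Il5 was mostly in Il1rl1+ Cd3e- cells (18 of 24), with 5 in Foxp3-negative T cells and 1 ungated. All 24 Il5 cells also had a UMI of Gata3, 21 had Il1rl1, 13 Rora, 8 Arg1 and 6 Areg, and none had Il13 or Il4. By comparison, 32.3% and 32.8% of the cells of the Il1rl1+ Cd3e- gate had Gata3. That gate is mixed, and its cells with an ILC2 marker held 95.4% and 97.2% of its Gata3 UMIs.

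Il13 cells were spread over 6 Foxp3-negative T, 5 Cpa3+, 3 Il1rl1+ Cd3e-, 6 ungated cells and 1 cell positive for more than 1 gate. Of the 21, 10 had Il1rl1, 8 Rora and 7 Gata3. Il4 cells were 37 Foxp3-negative T, 17 Cpa3+ and 11 C1qa+ cells, with 10 ungated and 7 in other gates. Of the 82, 24 had Il1rl1, 19 Rora and 18 Gata3, and 2 also had Il13. In Foxp3-negative T cells the Il4 UMIs were uneven: 29 in Gestation of the second library (0.0506 per 10000, 0.0339 to 0.0727), 18 in Balb/c (0.0810, 0.0480 to 0.128), 4 or fewer in each of 4 other samples and 0 in 5. Gestation of the second library also had the most T cells of any sample, 1519.

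**Figure D4:**
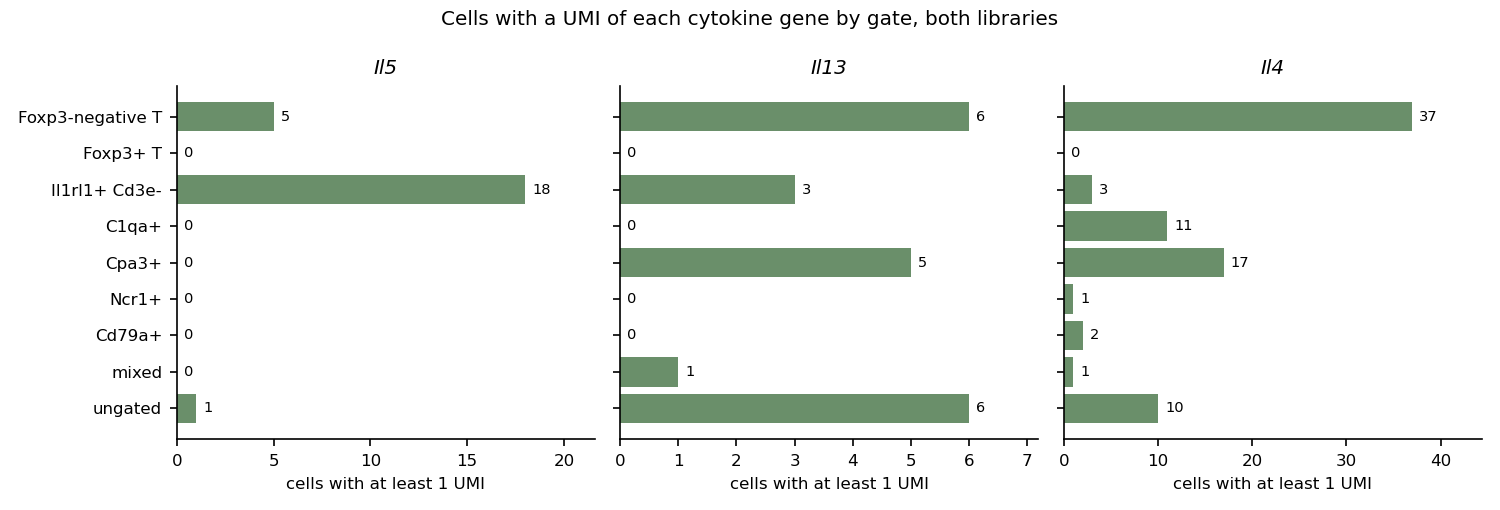
Number of cells with at least 1 UMI of Il5, Il13 or Il4 in each gate, both libraries joined. Il5 is concentrated in Il1rl1+ Cd3e- cells (18 cells), and Il4 in Foxp3-negative T (37) and Cpa3+ (17) cells.

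Gestation and Lactation are the only stage names in both libraries, and Lactation was compared with Gestation with the library as a block. No member passed the test in any gate that could be fitted, in a comparison with 1 residual degree of freedom in which almost nothing did: 0.166% of 1809 genes in the Il1rl1+ Cd3e- gate, 0.128% of 9347 in the Foxp3-negative T gate (0.0107% higher, 0.118% lower) and 0.0652% of 7674 in the C1qa+ gate (0.0521% higher, 0.013% lower). Unadjusted, Areg and Gata3 of the 3 members tested in the Il1rl1+ Cd3e- gate beside Il1rl1 had a p under 0.05 in edgeR, as did 227 (12.5%) of all 1809 genes there. None of those in the other gates did, and DESeq2 called no member. The Foxp3+ T and Cpa3+ gates had too few cells to be fitted.

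In Il1rl1+ Cd3e- cells the values of Il1rl1, Gata3, Rora, Areg and Arg1 were lower in Lactation than in Gestation in both libraries, without passing the test. Areg went from 2.42 (1.38 to 3.93) to 0.540 (0.217 to 1.11) in the first library and from 1.98 (1.38 to 2.75) to 1.17 (0.585 to 2.10) in the second library. The fitted difference was -1.33 (SE 0.44, unadjusted p = 0.0119, adjusted p = 0.277, edgeR's quasi-likelihood test with Benjamini-Hochberg adjustment). The counting intervals of the 2 stages were apart in the first library and overlapped in the second library. Il1rl1, whose level the gate bounds from below, went from 8.17 to 4.94 and from 4.80 to 3.20.

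Gata3 went from 5.15 to 1.62 in the first library and from 2.31 to 1.81 in the second library, a difference of -1.01 (SE 0.36, edgeR's adjusted p = 0.310). With 1 UMI of C1qa or Cpa3 setting those gates it was -1.24 (adjusted p = 0.0393), and without the second Gestation sample -1.72 (adjusted p = 0.0216). Rora went from 0.908 to 0.695 and from 1.02 to 0.320 (-0.93, SE 0.63, edgeR's adjusted p = 0.589). Arg1 went from 1.82 to 0.154 and from 0.226 to 0, on 12, 2, 4 and 0 UMIs, and was too low to be tested. The share of the gate's cells with an ILC2 marker moved from 69.2% to 42.2% in the first library and from 40.5% to 56.3% in the second library, opposite ways, and its part in these values was not tested.

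In Foxp3-negative T cells Gata3 went from 0.693 to 0.448 in the first library and from 1.17 to 1.25 in the second library (-0.24, SE 0.24, edgeR's adjusted p = 0.999), and Rora from 0.475 to 0.191 and from 0.560 to 0.969 (-0.07, SE 0.35, adjusted p = 0.999). The libraries went opposite ways for both genes. Areg in T cells of the second Gestation sample stood at 0.243, but 98 of its 139 UMIs were in 1 cell of a cluster led by milk genes. Areg there fell below the filter on low counts. Without that filter it was called lower in Lactation (-3.34, SE 0.72), and without Gestation of the first library the difference was -4.40. Both values rest on the sum that holds that cell. In the first library T cells held 1 Areg UMI in Gestation and 2 in Lactation, so neither value is read as a stage difference. In C1qa+ cells Il1rl1 went from 0.0492 to 0.0383 and from 0.236 to 0.187 (-0.33, SE 0.56, edgeR's adjusted p = 0.995).

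**Figure D5:**
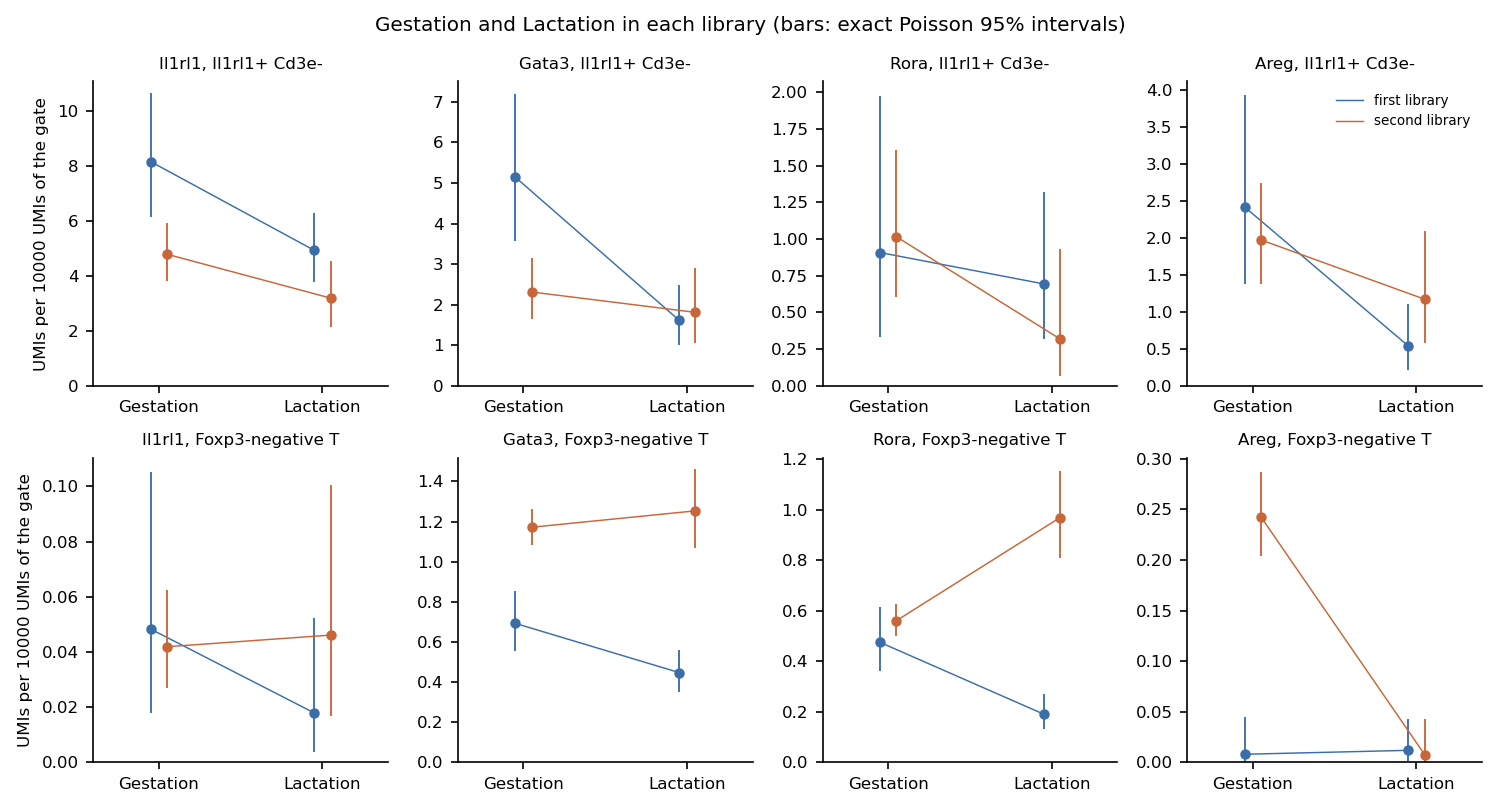
Il1rl1, Gata3, Rora and Areg (UMIs per 10000 UMIs of the gate) in Gestation and Lactation of each library, in Il1rl1+ Cd3e- cells (upper row) and Foxp3-negative T cells (lower row), with exact 95% Poisson intervals. In the upper row all lines run down, as Areg does from 2.42 to 0.540 in the first library, and in the lower row Gata3 and Rora run opposite ways in the 2 libraries.

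A list of 64 further genes of type 2 immunity was read in the same fits. Of all genes tested, 2.07% were higher and 5.26% lower in Foxp3+ than in Foxp3-negative T cells. Of the list, 8 of 39 tested were higher there and 6 lower, with a median of 0.01 against -0.17 over all genes. The higher genes were led by Il2ra (3.60), the high-affinity IL-2 receptor chain, the decoy receptor Il1r2 (3.51), Klrg1 (3.33), Penk (3.25), the costimulator Icos (2.03) and Maf (1.66). The lower genes were Zbtb16 (-3.21), Retnla (-2.63), Tcf7 (-1.87), Id2 (-1.48), Il7r (-1.10) and Jak1 (-0.57).

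In Il1rl1+ Cd3e- cells 22 of 45 were higher and 11 lower than in Foxp3-negative T cells (median 0.66 against -0.16). Of all genes tested, 19.3% were higher and 26.4% lower, so the list's lower count is near the share of all genes. The gate's mixed make-up shows in the leading genes: Retnla (5.41), Mgl2 (4.67) and Mrc1 (4.09) are myeloid, while Lif (4.87), Il6 (4.79) and the neuropeptide gene Calca (4.75) stand among them. Tcf7 (-3.66), Bcl11b (-2.07), Ets1 (-1.65), Il4ra (-1.20), Mcpt4 (-1.14) and Gfi1 (-1.11) were lower. Against C1qa+ cells 21 of 41 were higher and 8 lower (median 1.08 against -0.03), beside 12.7% higher and 18.7% lower of all genes tested. The lower count is again near the share of all genes. Here Lif (6.02), Calca (5.19), the IL-25 receptor Il17rb (4.50), Klrg1 (4.33), Csf2 (3.85) and Icos (3.60) led, and Tslp (-4.14), Ccl24 (-3.41), Maf (-3.18), Mrc1 (-1.37), Il4ra (-1.26) and Clec10a (-1.17) were lower.

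In Cpa3+ cells 16 of 34 list genes were higher and 9 lower than in Foxp3-negative T cells (median 0.71 against -0.36). Of all genes tested, 10.5% were higher and 21.5% lower, so the list's lower count is near the share of all genes. All 8 tested of the granulocyte genes were higher. Fcer1a (12.04), Tpsb2 (12.00), Mcpt4 (11.79), Ms4a2 (11.39), Cma1 (11.15) and Tph1 (10.75), genes of the IgE receptor, mast cell proteases and serotonin synthesis, led. Bcl11b (-11.04), Il7r (-6.79), Tcf7 (-6.69), Icos (-4.91), Ets1 (-4.38) and Retnla (-3.63) were lower. Between Lactation and Gestation, 1 of 32 list genes differed in Foxp3-negative T cells, beside 0.128% of all genes tested there. It was Il7r, lower in Lactation (-1.38, SE 0.25, adjusted p = 0.0460, edgeR's quasi-likelihood test with Benjamini-Hochberg adjustment). None of 16 differed in Il1rl1+ Cd3e- or of 26 in C1qa+ cells. In these 2 gates 8 and 8 had an unadjusted p under 0.05 in edgeR, beside 227 of all 1809 and 408 of all 7674 genes tested.

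Genes with the most similar pattern to each member were found over 66 sums of a gate and a sample among 12639 genes, by Pearson's r of log2(CPM + 10). The sums share libraries and gates, and r is a description. For Il1rl1 the gates also set part of the pattern: the Il1rl1+ Cd3e- gate requires a UMI of it, and the Ncr1+ and Cd79a+ sums hold only cells without one. Il1rl1 was nearest to Tiam1 (0.934) and Lmna (0.853), Gata3 to Cast (0.807) and Nabp1 (0.801), and Rora to Icos (0.869) and Il2ra (0.867). Areg was nearest to Gm45266 (0.831) and Gm47050 (0.830), and Arg1 to Upb1 (0.791) and Slc27a3 (0.769).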

How the data were processed

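Droplet gene expression and hash tag libraries were made with the 10x Genomics 3' v3.1 chemistry, per the labels' protocols. The gene and tag matrices deposited by the authors hold raw UMI counts and raw tag counts. Cell Ranger 6.1.0 and mm10 are named in the submitters' processing notes, while the gene matrix of the first library names Cell Ranger 4, per the file headers. Duplicated symbols were left out, and 0 columns of the whole-series tables were unmapped.

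Cells with at least 500 UMIs, 300 genes and at most 10% mitochondrial UMIs were kept (21604 and 21177). HTODemux (Seurat 5.3.0, quantile 0.99) gave 1 tag in 15983 and 14981 cells. Scrublet calls (7.86% and 6.87%; scanpy 1.11.5) and clusters with at least 50% of them were removed. HT4 of the second library had 1 tag count and was not used. Counts were summed per gate and tagged sample and tested with edgeR 4.0.16 (TMM, filterByExpr, glmQLFTest), Benjamini-Hochberg adjustment over all genes tested, threshold 0.05, with the sample as a block between gates and the library as a block between stages. Standard errors (SE) were computed from each gene's log2 difference and its F statistic, the size of the former divided by the root of the latter. In the Foxp3+ T and Cpa3+ fits the prior degrees of freedom were infinite, so all genes share 1 trend of spread. The scripts were tested on simulated data.

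The members and gene lists were chosen with earlier results of these data known. The 8 members are named throughout, as are up to 6 list genes per direction that passed the test in a comparison, and the 2 genes most like each member with at least 100 UMIs. Alternatives were other normalization, filters, gate minimums, doublet handling, blocks and left-out samples. Sequences and coordinates are RefSeq's, GRCm38.p6.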

Additional observations from a re-analysis of the deposited data

How the results depend on the processing

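Counts of called genes moved by more than 1.5 times under some settings. Lactation against Gestation called 12 genes in Foxp3-negative T cells, and 3 by DESeq2, 81 with no filter, 4 with 1-UMI gates, 1 with T cells gated by Cd3d, Cd3e and Cd3g, 37 with doublet calls kept, 22 without cells with epithelial markers, 0 with no library block and 0 to 19 with a sample left out. In Il1rl1+ Cd3e- cells it called 3, and 51 with DESeq2's size factors, 0 by DESeq2, 27 with no filter, 48 and 10 with 1-UMI and 3-UMI gates, 0 with no library block and 0 to 23 with a sample left out. In C1qa+ cells it called 5, and 2 by DESeq2, 74 with no filter, 0 and 3 with 1-UMI and 3-UMI gates, 1 with doublet calls kept, 53 without cells with epithelial markers, 0 with no library block and 0 to 10 with a sample left out. Foxp3+ against Foxp3-negative T cells called 751, and 381 by DESeq2, 443 with at least 20 cells, 361 with no sample block and 539 to 695 with a sample left out. Il1rl1+ Cd3e- cells against T cells called 4502, and 1463 in the first library alone and 2015 with an ILC2 marker. Against C1qa+ cells they called 2691, and 858 in the first library alone and 1776 with no sample block. Cpa3+ cells called 2335, and 1398 with 1-UMI gates and 1798 to 2123 with a sample left out. Where the count was 0 in the stage comparison, edgeR gave 93 to 683 genes with an unadjusted p under 0.05 and DESeq2 24. The settings that left out epithelial-marker cells, split the Il1rl1+ gate by ILC2 markers, gated by Foxp3 alone, tested the library interaction, or left out each sample of the Foxp3+ and Cpa3+ comparisons were chosen after seeing the data.

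Some member differences changed sign in the Lactation comparison, and none of those passed the test under either setting. With a sample left out, Gata3 in T cells ran from -0.87 (without Lactation of the second library) to 0.23 (without Lactation of the first library) and was 0.066 without Gestation of the second library. Rora there ran from -1.26 to 0.70 with the same 2 samples left out, was 0.049 and 0.017 without Gestation of the first library and of the second library, 0.063 with Cd3d, Cd3e and Cd3g and 0.037 with no library block. Il1rl1 in C1qa+ cells ran from -1.39 (without Lactation of the second library) to 0.59 (without Gestation of the second library), was 0.26 without Lactation of the first library and 0.17 with 1-UMI gates. In Il1rl1+ Cd3e- cells without an ILC2 marker Gata3 and Rora gave -3.01 and -2.91 against T cells and -0.10 and -0.52 against C1qa+ cells. The causes were not tested beyond what each setting changes. Of the member differences recomputed under the alternatives, 350 kept their direction and their side of the threshold, 9 newly passed it, 12 no longer passed it and 14 changed sign. The samples of each library share its block, and the replicate pairing of stages rests on the library alone. Leaving a sample out of the stage comparison drops the block, and the lone sample is assumed to vary like the others. Foxp3+ T cells in the first library alone, Cpa3+ cells in the first library alone or with at least 20 cells, and the stage comparison of Il1rl1+ Cd3e- cells with at least 20 cells or split by ILC2 markers could not be fitted.

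The cytokines rest on few UMIs. Il13 had 11 and 19 UMIs and Il5 3 and 27 UMIs in the first and the second library, and a difference between tagged samples was not detectable at these counts. The smallest sums that entered a fit held 10 cells (Cpa3+) and 11 cells (Foxp3+ T).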

Other observations

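Areg and Gata3 were also counted in cells that carried epithelial transcripts. In the second library 68 of 14603 cells had at least 3 summed UMIs of the epithelial genes Krt8, Krt18 and Epcam, and they held 35.3% of all Areg and 8.11% of all Gata3 UMIs. A cluster of 104 cells led by the milk genes Wap, Glycam1 and Csn1s2a held 35.1% of Areg and 8.52% of Gata3, and 1 ungated cell of it from HT2 held 123 Areg UMIs. Another cell of this cluster, a Gestation cell in the Foxp3-negative T gate, held 98 Areg UMIs. In the first library the 43 such cells held 0 Areg and 8 Gata3 UMIs. Without these cells the Areg difference between Foxp3+ and Foxp3-negative T cells was 3.30 (adjusted p = 7.72e-13, edgeR's quasi-likelihood test with Benjamini-Hochberg adjustment).

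A single Ncr1+ cell of the Regression sample held 16 of the 34 Arg1 UMIs of the Ncr1+ gate. Cells outside all gates held 44.1% and 18.9% of Gata3, 45.4% and 19.5% of Rora, 28.1% and 25.1% of Areg, and 37.1% and 7.94% of Arg1 UMIs in the first and the second library. In the 7 Foxp3+ T cells of HT2 in the second library, too few to enter the comparison, 18 of 24 Areg UMIs came from 1 cell.

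In the first library barcodes with 1 to 100 UMIs, which hold little but free RNA, carried Arg1 at 0.211, Gata3 at 0.242, Rora at 0.156, Il1rl1 at 0.0781 and Areg at 0.0130 UMIs per 10000. In Foxp3-negative T cells of that library the means of Arg1 (0.0235) and Il1rl1 (0.0521) lay below those values, and Gata3 (0.580), Rora (0.379) and Areg (0.0155) above them. In C1qa+ cells Arg1 (0.0261), Gata3 (0.0987) and Rora (0.114) lay below. Il1rl1 there (mean 0.0991) lay below in 3 of 4 samples (0.0383 to 0.0492), and Areg (0.0288) lay above on 3 UMIs in 1 sample. In Il1rl1+ Cd3e- cells Arg1 (0.929) lay above.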
